A study of Homo sapiens with 102 samples.

Results

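The mitotic genes examined here were 40 listed genes that act between the onset of mitosis and the separation of the daughter cells, among them BIRC5, which encodes survivin. Each gene was found in the count table through the Ensembl identifier that maps to its symbol. Of the 40 genes, 39 were among the 24965 genes of the table, and UBE2C was not analysed here. The measurements came from Combi-Seq, in which single cells are enclosed in picolitre droplets with a pair of drugs, each drug arrives with its own DNA barcode fragment, and the joined barcodes label the cDNA of all cells of that condition. The cells were K562, an established human chronic myeloid leukaemia line with the BCR-ABL fusion gene, harvested after 12 h in droplets. There were 2 screens, called dT and Bio after their labels, which used different barcoding schemes. Each screen held the 16 ordered pairs of DMSO, imatinib, trametinib and YM115 in 3 runs, which the study's text describes as independent experiments, and 3 separate DMSO controls, 102 libraries in all. Imatinib inhibits the BCR-ABL kinase and trametinib inhibits MEK. The compound labelled YM115 is spelled YM155 in the study's text and is known as a suppressor of survivin expression. Each condition is given below as its label lists the drugs, so that DMSO + imatinib and imatinib + DMSO are separate conditions, and all conditions shared the line, the fusion gene and the incubation time.

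Entry into mitosis is driven by CDK1 with its cyclins and by PLK1. The chromosomal passenger complex, in which survivin, INCENP and borealin (CDCA8) hold the kinase Aurora B (AURKB) at the centromere, corrects faulty attachments of chromosomes to the spindle. The spindle checkpoint delays anaphase until every kinetochore is attached, and CDC20 with the ubiquitin-conjugating enzymes UBE2C and UBE2S then lets the anaphase-promoting complex destroy securin (PTTG1) and the cyclins. Transcripts of these genes are made mainly in G2 and M phase, and survivin is also an inhibitor of apoptosis that is abundant in dividing tumour cells.

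The in-screen libraries held 127042 to 759756 counts in dT and 17882 to 780143 counts in Bio, and 1837 to 5110 and 438 to 3849 detected genes. The separate DMSO controls held 256671 to 458945 counts in dT and only 35742 to 89347 in Bio, but 7410 to 10361 and 5501 to 7058 detected genes. In-screen libraries entered the drug comparisons if 1000 or more genes were detected and mitochondrial genes took no more than 15% of counts, which held for all 48 in dT and 44 of 48 in Bio. The 4 Bio libraries left out included all 3 of imatinib + imatinib. As a check of the cell line, the erythroid genes HBG2, HBE1, HBZ and GATA1 each had a count in at least 50% of the in-screen libraries of both screens (the check used 14 erythroid genes, of which 5 in dT and 4 in Bio reached that share), whereas none of the T cell, B cell, monocyte and fibroblast markers did. Of the 2 epithelial markers, CDH1 reached that share in both screens.

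Most mitotic genes were absent from most in-screen libraries. In dT, 37 of the 39 genes had a count in at least 1 of the 48 in-screen libraries, and the median gene had one in 22.9% of them, against 4.17% for all 24965 genes of the table. In Bio, 36 of the 39 genes were found at all and the median gene had a count in 8.33% of libraries, against 2.08% for all genes. Only 9 genes in dT and 1 in Bio reached 50% of the libraries, and 17 in dT and 32 in Bio were found in fewer than 20%. Those at 50% or more were 23.1% and 2.56% of the 39 genes, against 8.76% and 3.32% of all genes. Where a mitotic gene was found, its count was often high: the median count where present was 26 in dT and 19 in Bio, and 39.5% and 39.8% of these values were at least 50 counts. Over all genes the median count where present was 9 in dT and 5 in Bio. CCNB2 and PTTG1 had no count in dT, and BUB3, TTK and KIF23 had none in Bio. Of the 39 genes, 36 were found in a larger share of dT than of Bio libraries.

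**Figure D1:**
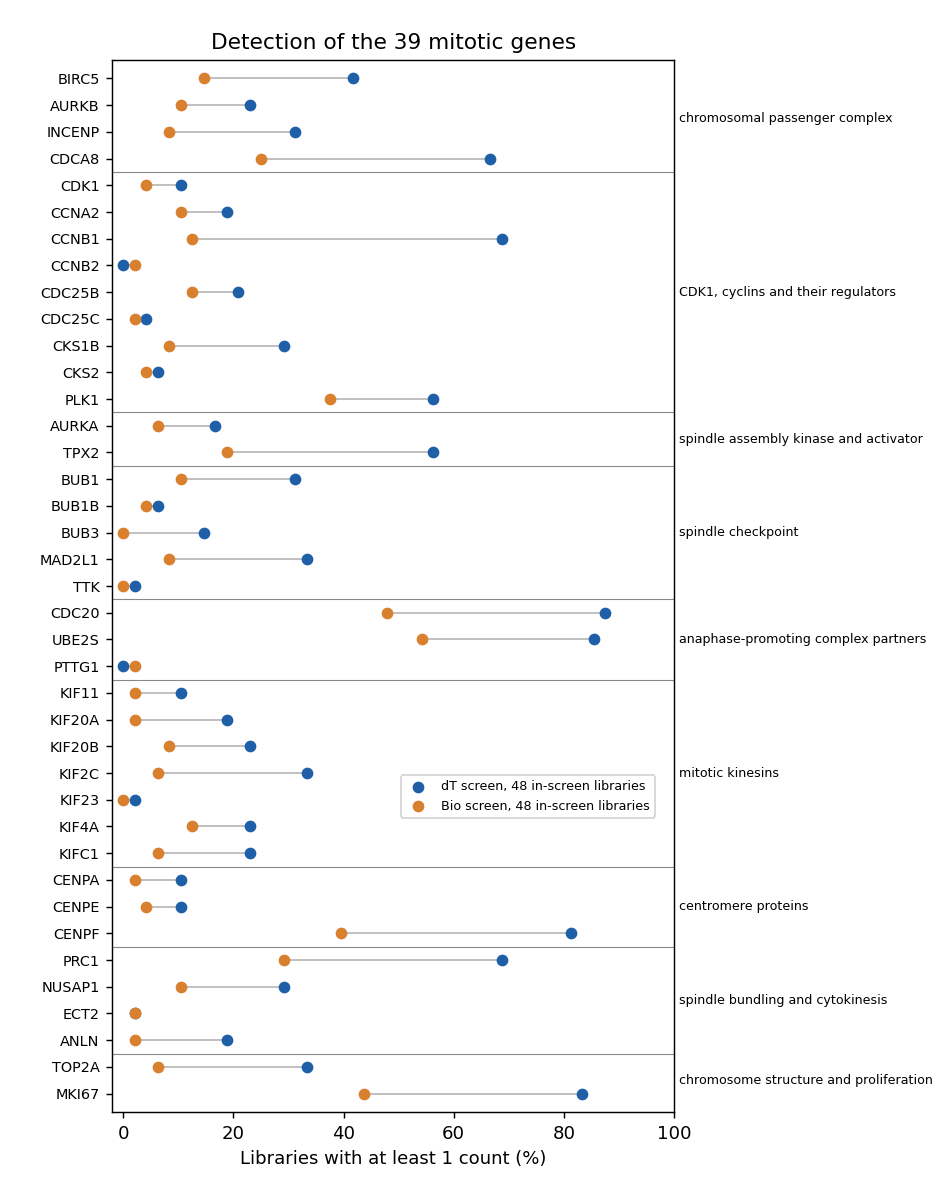
Percent of the 48 in-screen libraries of the dT screen (blue) and the Bio screen (orange) with at least 1 count of each of the 39 mitotic genes, ordered by role. The genes furthest to the right are CDC20 (87.5% in dT), UBE2S (85.4%), MKI67 (83.3%) and CENPF (81.2%), and in both screens the other genes spread down to 0%.

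The most widely detected genes were the same in both screens: the 10 genes with a count in the most dT libraries were also among the 12 that led in Bio, where ties extended the list. The leading gene in dT was CDC20, the activator of the anaphase-promoting complex, which had a count in 42 of 48 dT libraries and 23 of 48 Bio libraries. UBE2S, which extends the ubiquitin chains made by that complex, had a count in 41 and 26. MKI67, which encodes the proliferation antigen Ki-67 that coats mitotic chromosomes, had a count in 40 and 21. CENPF, a kinetochore protein, had a count in 39 and 19. CCNB1, PRC1, CDCA8, PLK1, TPX2 and BIRC5 completed the 10, with 20 to 33 dT libraries and 6 to 18 Bio libraries each. CDC25B and KIF4A, tied with CCNB1 in Bio, had 6 each there. The 5 genes with the most counts, CENPF, MKI67, CDC20, CDCA8 and PRC1, made up 62.8% of all mitotic counts in dT.

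The sequences just before the starts of CDC20, UBE2S, MKI67 and CENPF, the most widely found genes in dT, are shown to place 2 short motifs known from promoters of genes of the late cell cycle. One is TTTGAA, the core of the cell cycle genes homology region, and the other is CCAAT, the box bound by NF-Y. Each line runs 5′ to 3′ on build GRCh38.p14, from base 200 before the RefSeq start to the base before that start. It stops sooner where the GENCODE gene model begins earlier, and capitals mark a motif on either strand.
CDC20: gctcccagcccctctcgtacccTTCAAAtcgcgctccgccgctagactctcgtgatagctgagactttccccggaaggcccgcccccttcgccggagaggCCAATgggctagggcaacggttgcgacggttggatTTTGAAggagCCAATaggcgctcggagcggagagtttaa
UBE2S: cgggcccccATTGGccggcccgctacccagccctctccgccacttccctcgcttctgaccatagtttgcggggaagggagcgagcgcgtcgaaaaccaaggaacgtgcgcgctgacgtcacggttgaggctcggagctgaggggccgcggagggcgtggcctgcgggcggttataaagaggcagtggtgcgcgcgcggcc
MKI67: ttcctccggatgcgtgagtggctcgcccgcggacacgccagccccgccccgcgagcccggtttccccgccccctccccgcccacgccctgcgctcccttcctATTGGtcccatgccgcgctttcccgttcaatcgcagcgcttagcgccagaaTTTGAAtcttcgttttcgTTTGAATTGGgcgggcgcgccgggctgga
CENPF: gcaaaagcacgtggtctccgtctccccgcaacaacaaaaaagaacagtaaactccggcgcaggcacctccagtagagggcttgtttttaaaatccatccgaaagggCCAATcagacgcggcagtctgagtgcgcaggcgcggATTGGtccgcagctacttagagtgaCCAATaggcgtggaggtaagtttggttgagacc
The stretches lie at chr1:43358781-43358954 on the plus strand (CDC20), chr19:55407789-55407988 on the minus strand (UBE2S), chr10:128126424-128126623 on the minus strand (MKI67) and chr1:214602995-214603194 on the plus strand (CENPF). CDC20 has TTTGAA at 65 bases before the RefSeq start between a pair of CCAAT boxes at 100 and 55, and its last 26 bases before that start were left off because the GENCODE gene model already covers them. MKI67 has TTTGAA at 47 and 29, and the second shares 1 base with a reversed CCAAT box. CENPF has 3 CCAAT boxes and UBE2S has 1, and neither has TTTGAA in the stretch shown. RefSeq promoter windows were found for 34 of the 40 genes (44 windows), and BIRC5, AURKA, UBE2C, BUB3, TPX2 and TTK had no entry. Within the 250 bases before the start, 47.7% of these windows held TTTGAA on either strand, against 13.3% of all 35116 windows of the same length. CCAAT was in 79.5% of them, against 32.0% of all windows, and both motifs were in 40.9%, against 4.69%.

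Within the chromosomal passenger complex, the complex of survivin itself, detection differed between the subunits. CDCA8 had a count in 32 of 48 dT libraries and 12 of 48 Bio libraries, INCENP in 15 and 4, and AURKB in 11 and 5. BIRC5 was detected in 20 of 48 dT libraries, at a lowest and a median level of 0 and a highest level of 137 CPM (the gene's share of all counts of its library, scaled to a common total). In the 3 separate dT controls BIRC5 stood at 111, 77.9 and 80.6 CPM, whereas in the 3 in-screen DMSO + DMSO libraries of dT it was at 0, for which 3 counts allow 15.1 to 17.2 CPM. The mean of the separate dT controls, 89.9 ± 18.5 CPM (SD, n = 3), was 5.51-fold the mean limit of 16.3 CPM. That fold allows for counting error in the in-screen zeros only, not for the spread of the separate controls. It also treats each count as an independent draw. Where mitotic genes were found in dT the median count was 26, so the limit may be too low and the fold is no firm lower bound. Separate dT controls 2 and 3 held 31.0% and 36.9% mitochondrial counts, above the 15% set for in-screen libraries. In the edgeR test of this contrast BIRC5 did not pass (adjusted p = 0.296). The median log2 fold change over all genes tested in that contrast was 3.39, so a higher level in the separate controls was not particular to BIRC5. In Bio, BIRC5 had a count in 7 of 48 in-screen libraries, and 1 imatinib + trametinib library at 1761 CPM stood far above the rest. It had a count in 1 of the 3 separate Bio controls, at 56.0 CPM, and as the 0 of the Bio DMSO + DMSO libraries allows 20.4 to 36.7 CPM, no fold is given. BIRC5 lies at chr17:78214186-78225636 on the plus strand (GRCh38) and overlaps no other annotated gene.

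Among CDK1, the cyclins and their regulators, CCNB1 (cyclin B1) and PLK1 were found in 33 and 27 dT libraries, whereas CDK1 itself, the kinase that cyclin B activates, was found in 5 dT and 2 Bio libraries. CCNA2, CDC25B and CKS1B were found in 9 to 14 dT libraries, and CDC25C, CKS2 and CCNB2 in 0 to 3. Of this group PLK1 had the highest single value: 24309 CPM in 1 Bio library of imatinib + imatinib, which held too few genes for the drug comparisons. TPX2, which activates the spindle kinase Aurora A, was found in 27 dT libraries and Aurora A (AURKA) in 8. The spindle checkpoint genes were found rarely, with MAD2L1 in 16, BUB1 in 15, BUB3 in 7, BUB1B in 3 and TTK in 1 of 48 dT libraries. Of the 7 kinesins, motors that move chromosomes and slide spindle microtubules, KIF2C led with 16 dT libraries and KIF23, needed for the last step of division, had 1. CENPA and CENPE were found in 5 dT libraries each, NUSAP1 in 14, ANLN in 9, ECT2 in 1 and TOP2A, the topoisomerase that untangles sister chromatids, in 16. UBE2S lies opposite RPL28 and KIF20A opposite BRD8 and CDC23 on the genome, and 16 of the 39 genes have a partner on the other strand. Whether counting used strand is not given in the sources used here, so values of genes in such pairs may include reads of the partner.

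**Figure D2:**
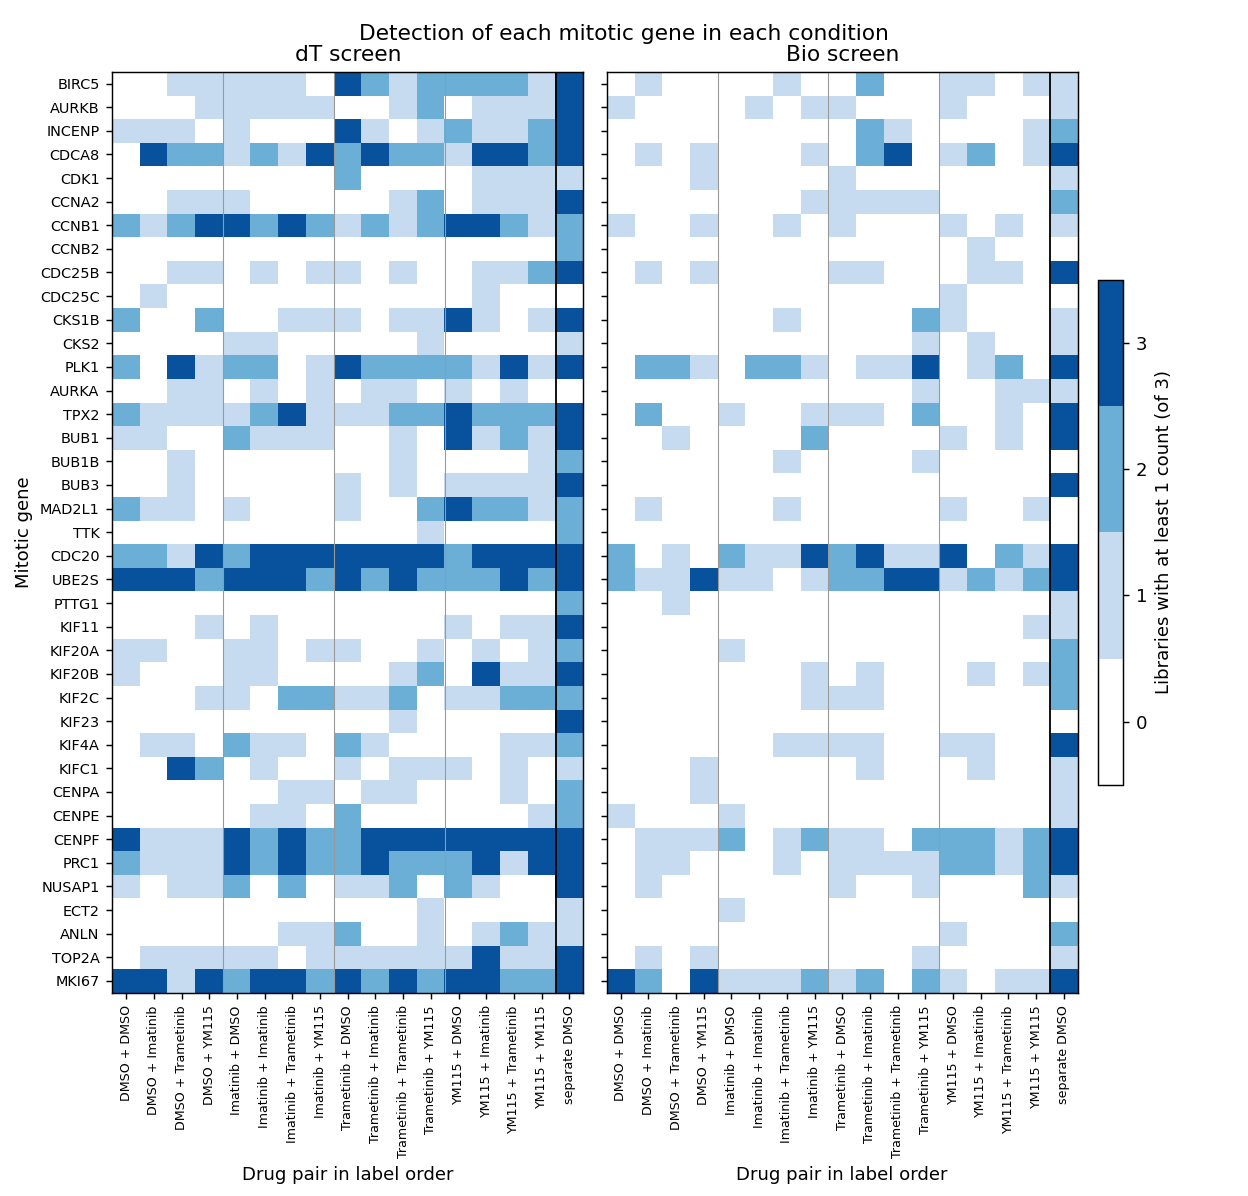
Number of the 3 libraries of each condition with at least 1 count of each mitotic gene (white 0 to dark blue 3), with drug pairs in label order on the horizontal axis and the separate DMSO controls in the last column of each panel. CDC20, UBE2S, MKI67 and CENPF form nearly filled bands in dT, and in dT the separate controls hold BUB3 and KIF23 in all 3 libraries, which most in-screen conditions lack.

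The separate DMSO controls held more mitotic genes than in-screen libraries of the same depth. At an equal depth of 30000 counts, a depth chosen after seeing the data so that all 3 separate Bio controls could enter, the expected number of mitotic genes with a count was 14.8 to 22.8 in the separate dT controls and 2.76 to 13.5 (median 7.95) in the 48 in-screen dT libraries. In Bio it was 16.1 to 20.04 in the separate controls and 0.634 to 7.42 (median 3.29) in the 46 in-screen libraries that deep. The ranges did not overlap in either screen. The number of all genes detected at that depth moved in the same way, from a median of 1989 in-screen to 5239 in the separate controls in dT and from 1086 to 5187 in Bio. Counted per 1000 detected genes, mitotic genes numbered 1.99 to 6.74 in-screen (median 4.16) and 3.92 to 4.12 in the separate controls of dT, and 0.718 to 6.03 (median 2.99) and 3.07 to 3.86 in Bio, so that here the ranges overlapped. In this measure the separate controls did not stand apart. The separate controls also carried more mitochondrial counts, 10.2% to 36.9% in dT and 5.10% to 28.1% in Bio against 1.62% to 7.33% in-screen. Within each screen the separate control with the fewest mitochondrial counts (10.2% in dT, 5.10% in Bio) held the most mitotic genes at 30000 counts, 22.8 and 20.04. Why in-screen libraries held fewer genes of all kinds at equal depth was not tested. In these pooled samples, the number of dividing cells and the mitotic RNA per cell cannot be told apart.

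**Figure D3:**
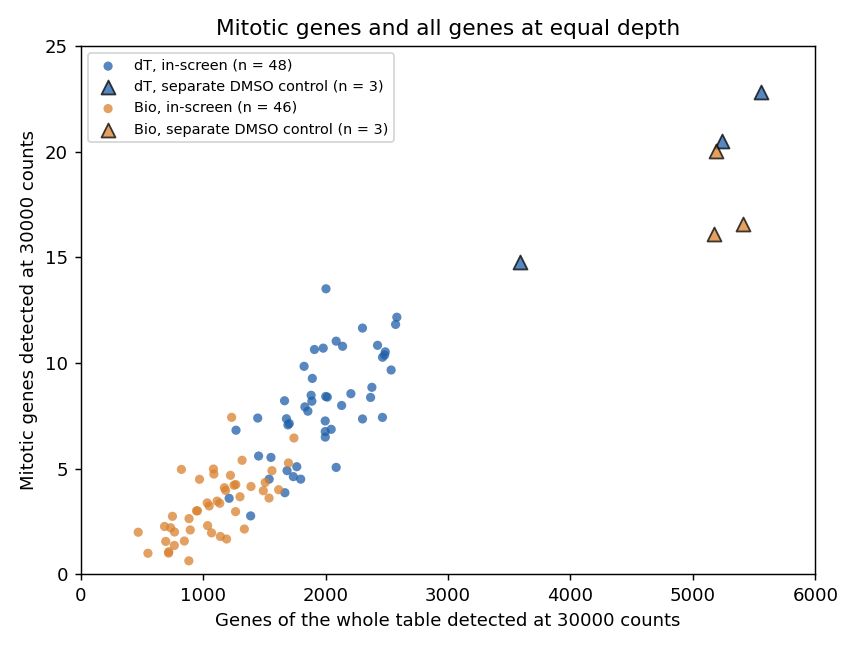
Expected number of the 39 mitotic genes with a count (vertical axis) against the expected number of all genes with a count (horizontal axis), both at 30000 counts, for each library (circles, in-screen; triangles, separate DMSO controls; blue, dT; orange, Bio). The libraries lie along 1 band from few to many genes, with the separate controls at 14.8 to 22.8 mitotic genes at its upper end.

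At 50000 counts, the 48 in-screen dT libraries held 8.69 ± 2.67 mitotic genes (SD over libraries) and the 44 Bio libraries 3.65 ± 1.59. By first-listed drug, the dT means were 7.12 ± 3.07 with DMSO, 7.80 ± 1.84 with imatinib, 9.28 ± 2.67 with trametinib and 10.6 ± 1.64 with YM115 (n = 12 each), and the neighbours in that order differed by less than their SD, whereas DMSO and YM115 differed by more than either SD. In Bio the order was another, at 3.37 with DMSO, 2.98 with imatinib, 4.19 with trametinib and 3.87 with YM115. In dT the number of all genes followed the order of the dT mitotic means, from 1802 with DMSO through 2110 and 2468 to 2476 with YM115. Counted per 1000 detected genes, the dT means were 3.90, 3.70, 3.70 and 4.30. By second-listed drug the 4 dT means lay between 7.98 and 9.17. The single conditions of dT ranged from 5.68 ± 2.34 for DMSO + imatinib to 11.5 ± 0.610 for YM115 + imatinib (n = 3 each).

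The summed level of the 39 genes was 2304 ± 899 CPM over the 48 dT libraries and 1897 ± 1468 CPM over the 44 Bio libraries. In dT the lowest condition mean was 1516 ± 509 CPM for DMSO + imatinib and the highest 3319 ± 928 CPM for DMSO + trametinib (n = 3 each). Their libraries, at 937 to 1891 and 2301 to 4119 CPM, did not overlap. As these conditions were picked as the extremes of 16, that separation is no evidence of a difference between them. The conditions with the drugs in reverse order stood closer, at 2584 ± 984 CPM for imatinib + DMSO and 2116 ± 1327 CPM for trametinib + DMSO. By drug, the dT means were 2279 CPM with imatinib and 2322 without, 2397 with trametinib and 2231 without, and 2374 with YM115 and 2248 without, differences of less than the SD of 860 to 952 CPM within each arm. The separate dT controls stood at 1126 to 2662 CPM, inside the range of the in-screen libraries, and the separate Bio controls at 2910 to 2994 CPM. The highest value, 24342 CPM in 1 Bio library of imatinib + imatinib, was nearly all PLK1.

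**Figure D4:**
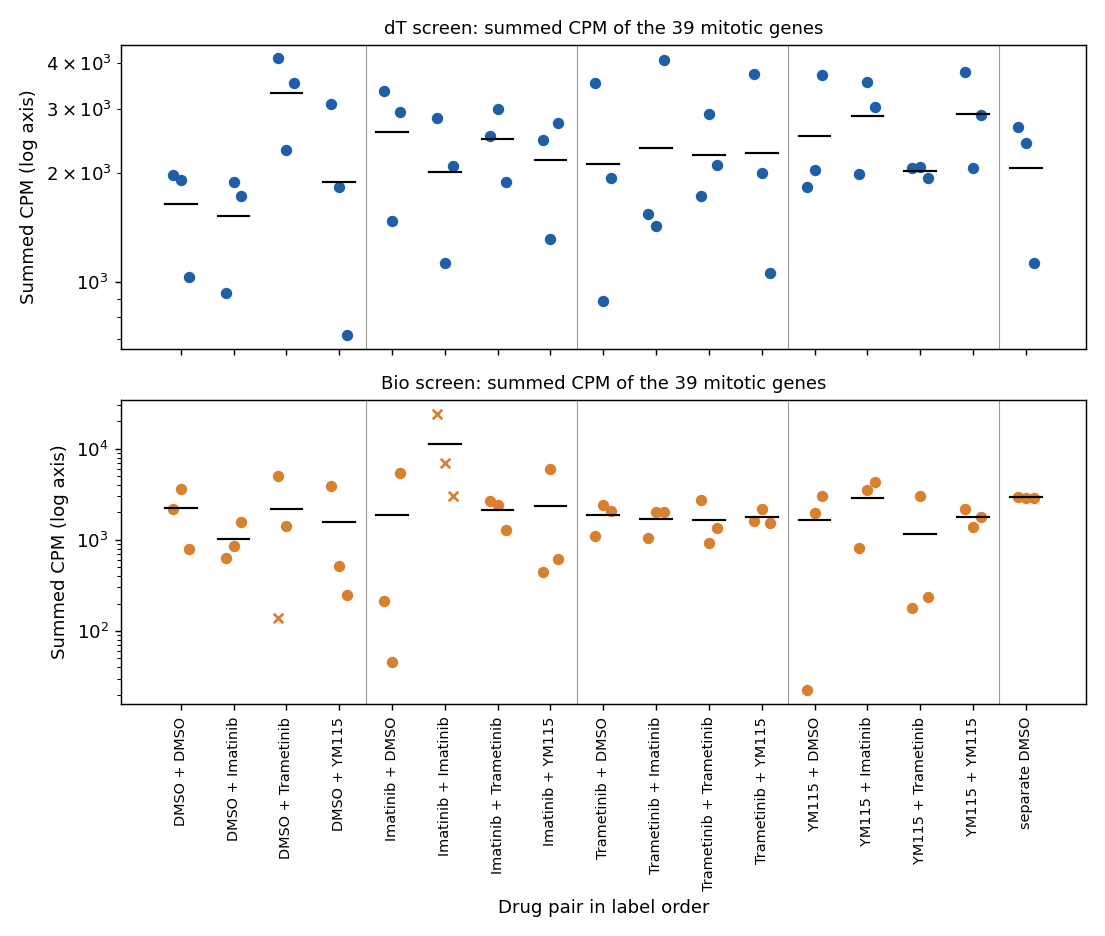
Summed CPM of the 39 mitotic genes (log axis) in each library, by condition in label order, for dT (top) and Bio (bottom), where black bars are condition means and crosses are the 4 Bio libraries left out of the drug comparisons. Libraries of 1 condition spread widely, as in dT DMSO + YM115, where the values run from 716 to 3097 CPM.

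For each drug, libraries that received it in either position were compared with those that did not, in edgeR's quasi-likelihood test with the other drugs and the run in the model. All adjusted p-values (Benjamini-Hochberg over all genes tested) come from that test. In dT, 22 of the 39 mitotic genes passed the filter on low counts, among 3930 genes tested. Of these 22, 1 passed the test for imatinib (2.88% of all genes tested passed), 2 for trametinib (1.37%) and 1 for YM115 (2.62%). The 4 calls fell on 4 different genes, and none of them was called again once a run was omitted, whichever of the 3 it was, partly because fewer of these genes then passed the filter (17 to 21 were tested). Without run 3, PLK1 was called for imatinib, and ANLN and MAD2L1 for YM115. The median log2 fold change of the 22 genes was -0.03 for imatinib, 0.23 for trametinib and 0.68 for YM115, beside 0.07, 0.23 and 0.21 over all genes tested.

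KIFC1, a minus-end kinesin that gathers spindle poles, was lower with imatinib. Of the 21 dT libraries that received imatinib, 1 held a single KIFC1 count, and of the other 27, 10 held counts, with a lowest and a median level of 0 and a highest level of 259 CPM. The 3 DMSO + trametinib libraries, at 116, 38.1 and 259 CPM, were the only condition with a count in every run. The DMSO + DMSO libraries had no KIFC1 count, and neither had DMSO + imatinib or imatinib + DMSO. The call therefore does not show a fall from the level with solvent alone. Pooled over the arm, the level of KIFC1 was 0.135 CPM with imatinib and 19.3 CPM without. The ratio was 143, with an exact 95% counting interval from 25.4 to 5687. That interval treats each count as an independent draw. It also leaves out the spread between libraries, although 10 of the 27 libraries without imatinib held all counts of their arm. The fitted log2 fold change was -5.45 ± 1.15 (SE, adjusted p = 0.00579), and the level with imatinib was lower in 3 of 3 runs. With DESeq2 the adjusted p was 0.163. In libraries with at most 1 kind of drug it was no longer called, at a log2 fold change of 0.78 that equalled the median of all genes in that fit (0.78). CKS1B, a small subunit of CDK complexes, and PLK1 were the next in order for imatinib, at adjusted p = 0.14 and 0.168. PLK1 was found in 8 of 21 libraries given imatinib (median 0, highest 466 CPM) and in 19 of 27 without (median 17.01, highest 1106 CPM), and DESeq2 gave it an adjusted p of 0.00272.

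KIF20A, a kinesin of the central spindle, was lower with trametinib. It had a count in 2 of 21 libraries with the drug, at 14.0 and 3.85 CPM, and in 7 of 27 without it, with a highest level of 380 CPM and a median of 0 in both arms. The fitted log2 fold change was -5.14 ± 1.16 (adjusted p = 0.0129), lower in 3 of 3 runs. In libraries with at most 1 kind of drug KIF20A was no longer called. ANLN, the anillin that organises the contractile ring, was higher with trametinib. It had a count in 6 of 21 libraries with trametinib (highest 410 CPM) and in 3 of 27 without (highest 176 CPM), with a fitted log2 fold change of 5.33 ± 1.39 (adjusted p = 0.0324) and a higher mean in 2 of 3 runs. NUSAP1, which bundles spindle microtubules, had an adjusted p of 0.141. BIRC5 had a count in 12 of 21 libraries with trametinib, with a median of 2.61 and a highest level of 137 CPM, and in 8 of 27 without, with a median of 0 and a highest level of 30.3 CPM. Its mean was higher with trametinib in 3 of 3 runs, but the arms overlapped and it did not pass the test (log2 fold change 3.19 ± 1.30, adjusted p = 0.254).

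AURKB, the kinase partner of survivin, was higher with YM115. AURKB counts were present in 7 of the 21 libraries given YM115, with a highest level of 232 CPM, and in 4 of 27 without, with a highest level of 81.1 CPM and a median of 0 in both arms. The fitted log2 fold change was 4.73 ± 1.29 (adjusted p = 0.0323), with a higher mean in 3 of 3 runs, and the arms overlapped. In libraries with at most 1 kind of drug AURKB was no longer called. It had no count in DMSO + DMSO or YM115 + DMSO, and a count in 1 of the 3 libraries of DMSO + YM115. KIF4A, a chromosome-bound kinesin, and ANLN were next, at log2 fold changes of -4.91 ± 1.65 and 3.84 ± 1.30 (adjusted p = 0.0973 and 0.1). BIRC5, the gene whose expression YM115 is known to suppress, did not differ detectably with it. BIRC5 was found in 10 of the 21 libraries given YM115 and in 10 of the other 27, and the means were 9.23 ± 29.6 and 11.5 ± 26.7 CPM (SD). The fitted log2 fold change of BIRC5 for YM115 was 0.91 ± 1.15 (adjusted p = 0.82), opposite in direction to the means and smaller than its SE. For imatinib it was 1.04 ± 1.14 (adjusted p = 0.814). By condition, BIRC5 in dT was at 8.65, 0 and 0 CPM with YM115 from both sources, and the DMSO + DMSO libraries were at 0.

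The share of libraries with a count, which does not depend on how high a count is, was read beside the same share over all genes. With YM115, 26 of the 37 mitotic genes found in dT were found in a larger share of libraries than without it (70.3%), against 56.9% of all genes found in that screen, with a median difference of 6.88 percentage points against 1.06. With trametinib it was 24 of 37 genes (64.9%, against 56.6%) and with imatinib 15 of 37 (40.5%, against 42.6%). In Bio it was 26 of 36 genes with YM115 (72.2%, against 63.6%), 17 of 36 with trametinib (47.2%, against 56.5%) and 18 of 36 with imatinib, against 45.7%. These shares were not tested, and they were not taken at equal depth. For each drug in each screen, libraries given the drug were deeper on average than the others. The dT libraries averaged 380570 counts where YM115 was present and 313710 where it was absent. For the Bio libraries these averages were 272040 and 243810. The shares therefore cannot separate an effect of a drug from one of depth.

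In Bio, 7 mitotic genes passed the filter on low counts (CDC20, CDCA8, CENPF, MKI67, PLK1, PRC1 and UBE2S) and BIRC5 did not. None of the 7 passed for imatinib (2.34% of all 1754 genes tested), trametinib (1.94%) or YM115 (2.74%). In edgeR no member had an unadjusted p under 0.05 for any drug. DESeq2 passed 0, 0 and 2 of them, the 2 being CENPF and PRC1 for YM115, at adjusted p = 0.0475 and 0.0451, where it passed 155 of all 1754 genes. For imatinib the smallest adjusted p-values were those of CENPF (log2 fold change 3.60 ± 2.12, adjusted p = 0.446), CDC20 (-2.32 ± 1.37, adjusted p = 0.448) and CDCA8 (2.80 ± 1.93, adjusted p = 0.544). For trametinib they were those of PRC1 (4.97 ± 3.23, adjusted p = 0.614), PLK1 (2.82 ± 2.12) and CENPF (2.85 ± 2.28). For CENPF the pooled level went the other way, at 231 CPM with trametinib and 385 without. For YM115 they were those of PLK1 (-3.65 ± 1.88, adjusted p = 0.34), PRC1 (5.71 ± 3.16) and CENPF (3.98 ± 2.23). For PRC1 the pooled level was lower with YM115, at 194 CPM against 224, opposite in direction to the fit. CDC20 with imatinib had a median of 1.36 and a highest level of 324 CPM in 18 libraries, against a median of 3.07 and a highest level of 1218 CPM in the 26 without.

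Whether the position of a drug in the label mattered was a joint test over the 3 drugs. In dT, 2 of 22 mitotic genes passed, against 10.7% of all genes tested. These were TPX2 (adjusted p = 0.0446) and NUSAP1 (adjusted p = 0.0431). TPX2 had means of 133 ± 204 CPM with trametinib second-listed and 36.4 ± 86.5 CPM with it first-listed (n = 12 each). NUSAP1 was highest with DMSO second-listed, at 43.1 ± 55.6 CPM. In Bio, 2 of 7 passed, PLK1 and CDCA8, against 21.1% of all genes. PLK1 (adjusted p = 0.00866) was at 0 in the 12 libraries with DMSO second-listed, and with trametinib second-listed 7 of 11 libraries had a count, with a highest level of 929 CPM. CDCA8 (adjusted p = 0.0406) had a highest level of 3.81 CPM with imatinib first-listed (n = 9) and of 1504 CPM with it second-listed (n = 9). DESeq2 passed none of them in either screen (32 of all 3930 genes in dT and 7 of 2112 in Bio), with 1 and 2 members at an unadjusted p under 0.05.

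Departure of drug pairs from the sum of the single drugs was tested over the 3 kinds of pair. In dT, 3 of 29 mitotic genes passed, against 9.77% of all genes tested, and in Bio 3 of 14 passed, against 14.0%. The dT genes were CKS2, KIF20B and KIF2C (adjusted p = 0.0275, 0.0349 and 0.0384). CKS2 rested on 3 libraries with a count, at 45.1, 133 and 73.9 CPM. KIF20B, a kinesin of the spindle midzone, was at 197, 30.5 and 168 CPM with YM115 + imatinib, the only in-screen condition in which all 3 libraries had a count. KIF2C, which shortens microtubule ends, was highest with YM115 from both sources, at 0, 302 and 911 CPM. The Bio genes were TPX2, CCNA2 (cyclin A2) and PLK1 (adjusted p = 0.0316, 0.0417 and 0.0432). CCNA2 rested on 5 libraries with a count, the highest at 1190 and 747 CPM. With a run omitted, 0 of all genes tested passed in either screen, members included. DESeq2 passed 1 of all 6263 genes in dT and 0 of 3429 in Bio, none of them members, with 0 members at an unadjusted p under 0.05.

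The separate DMSO controls were compared with the in-screen DMSO + DMSO libraries, 3 against 3, in a fit of all libraries of the screen. In dT, 0 of 29 mitotic genes passed (0.116% of all genes tested passed), although 10 had an unadjusted p under 0.05 (1117 of all 6917 genes), and DESeq2 passed 2, CDCA8 and TOP2A (605 of all 6917 genes). In Bio, 0 of 20 passed (0.0432%), 6 had an unadjusted p under 0.05 (1125 of all 4631 genes) and DESeq2 passed 6 (845 of all 4631). With only the separate control of each screen that had at most 15% mitochondrial counts, an alternative added after seeing the data, 0 of 32 mitotic genes passed in each screen. Of the 24 mitotic genes at 0 in all 3 in-screen DMSO + DMSO libraries of dT, 9 had a count in all 3 separate controls, among them BIRC5, AURKB, CDCA8, CCNA2 and TOP2A (37.5%, against 9.36% of the 16343 genes of the screen at 0 in the same libraries, a description with no test). Genes picked for being at 0 in 1 group can differ in 1 direction only. The median mitotic gene was also found in more in-screen dT libraries than the median of all genes (22.9% against 4.17%), so these shares are not like for like. In Bio the same shares were 27.3% and 9.99%. The median log2 fold change of this contrast in dT was 2.72 for the 29 mitotic genes and 3.39 for all genes tested. CDC20 and CENPF, with counts in both groups, had log2 fold changes of -0.87 ± 1.97 and 1.12 ± 2.05 in dT (adjusted p = 0.821 and 0.77).

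Drug effects in the 2 screens were set against each other in a joint model of 92 libraries. Of 25 mitotic genes, 5 passed, against 26.3% of all genes tested, so the count says nothing particular to the mitotic genes. The 5 were KIFC1, KIF2C, CDC25B, BIRC5 and ANLN, of which none had passed the filter for the drug tests in Bio, where they had a count in 1 to 7 libraries. BIRC5 (adjusted p = 0.00543) had, with imatinib, a mean of 10.5 ± 28.5 CPM in dT and 116 ± 414 CPM in Bio, where 1 library at 1761 CPM carried the mean, and without imatinib 10.5 ± 27.6 and 0.635 ± 2.25 CPM. DESeq2 passed none of the 25 (7 of all 4705 genes), with 1 at an unadjusted p under 0.05, and gave no adjusted p for KIF2C and ANLN.

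Other genes of mitosis and the cell cycle are given by counts. Of 47 other kinetochore and spindle genes, 46 were in the table, 18 were tested for drugs in dT and 8 in Bio. Only CEP55, which acts at abscission, passed a drug test: it was lower with imatinib in dT (log2 fold change -5.34, adjusted p = 0.0256), with a count in 2 of 21 libraries with the drug (highest 15.3 CPM) and 9 of 27 without (highest 455 CPM). None of the subunits of the anaphase-promoting complex (5 of 16 tested in dT), of condensin and cohesin (7 of 17), or of the G1 and S phase regulators (5 of 21 in the table) passed a drug test in either screen. No other inhibitor of apoptosis protein or caspase passed the filter on low counts in the drug comparisons.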

How the data were processed

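The authors deposited whole-number counts per gene and library, and the submitters' processing notes name STAR 2.4.2a and GRCh38. Whether strand was used in counting is not given in the sources used here. No per-sample column was left unmapped. The mitotic genes, the other gene lists and the tests were chosen with earlier results of these data known. Levels are CPM. Genes were kept by edgeR's filterByExpr and tested with edgeR 4.0.16 (TMM, quasi-likelihood, R 4.3.3), with 1 term per drug and the run as a block, as the study removed run effects. Adjusted p-values are Benjamini-Hochberg over all genes tested, at a threshold of 0.05, and SE is the log2 fold change divided by the square root of F. Joint tests give no single fold change. All 40 genes are accounted for, and values are given for BIRC5, every gene that passed a test, the 3 with the smallest adjusted p for each drug and screen, and the 10 found in the most libraries of each screen. Run numbers come from the labels. Deviations from condition means correlated at a mean of 0.0244 within runs and -0.0122 between runs in dT, and at 0.0306 and -0.0153 in Bio. No 2 replicate libraries were identical. Counting intervals and limits treat each count as an independent draw and cover counting error only. Equal-depth numbers are expectations without resampling. DESeq2 1.42.0, other filters and left-out runs were alternatives. The depth of 30000 counts, the unblocked fit on the genes of the blocked fit, and the limit on mitochondrial counts in the separate controls were added after seeing the data.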

Additional observations from a re-analysis of the deposited data

Results flagged for a closer look

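For 5 mitotic genes a joint interaction test of the 3 drugs with the screen, dT against Bio, passed (edgeR's quasi-likelihood test, 92 libraries). The adjusted p was 4.81e-05 for KIFC1, 0.000839 for KIF2C, 0.00121 for CDC25B, 0.00543 for BIRC5 and 0.0225 for ANLN. Among all genes tested 26.3% passed the same test, a larger share than of the mitotic genes. DESeq2 passed none of the 25 mitotic genes tested and 7 of all 4705 genes. Each of the 5 genes was no longer called with at least 1 of the runs left out. In Bio the 5 genes had counts in too few libraries (1 to 7 of 48) to pass the filter for the drug tests there, so these p-values rest on few Bio values. KIFC1 had a count in 3 Bio libraries, 2 of which held imatinib, at 275 CPM with trametinib + imatinib and 499 CPM with YM115 + imatinib, whereas in dT it had 1 count with imatinib. KIF2C had a count in 3 Bio libraries and its 2 highest Bio values, 325 and 580 CPM, came without YM115, whereas its highest dT values, 302 and 911 CPM, came with YM115 from both sources. CDC25B was highest in Bio with trametinib + imatinib, at 805 CPM, and in dT with YM115 from both sources, at 326 CPM. BIRC5 was found in 7 in-screen Bio libraries, the highest at 1761 CPM with imatinib + trametinib. ANLN had a count in 1 in-screen Bio library, at 235 CPM with YM115 + DMSO. Barcoding scheme and screen cannot be told apart.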

How the results depend on the processing

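Few mitotic genes had counts in many libraries. No mitotic gene passed for imatinib or trametinib in Bio under any setting, and the counts for YM115 in Bio and for the separate controls changed with DESeq2 only. Without the replicate block, 0 genes passed for imatinib, trametinib and YM115 in dT and 0 for drug position in dT, and 6 passed for drug pairs in dT. In the drug tests 15 genes instead of 22 then passed the filter. In an unblocked fit on the genes of the blocked fit, added after seeing the data, 1 gene passed for imatinib (KIFC1), 0 for trametinib, YM115 and position in dT, 6 for pairs in dT and 9 for drug by screen. With DESeq2, 2 passed for YM115 in dT and 2 in Bio, 0 for position and pairs in both screens, 0 for drug by screen, and 2 and 6 for the separate control in dT and Bio. With DESeq2's size factors in edgeR, 0 passed for position in dT, and the median of all genes tested moved from 0.07 to -0.10 for imatinib and from 0.21 to 0.06 for YM115 in dT. With no filter on low counts, 3 passed for imatinib and 0 for YM115 in dT, and 4 for position in Bio. With a count required in at least 50% of libraries, 9 genes in dT and 2 in Bio were tested and 0 passed in any comparison. With at most 1 kind of drug, 0 passed for each drug in dT, and the fitted log2 fold changes turned to 1.83 for KIF4A (YM115, dT), 0.78 for KIFC1 (imatinib, dT) and 0.80 for PLK1 (YM115, Bio). In these fits the median of all genes was itself 1.29, 0.78 and 2.83, so the changes of sign come with a shift of all genes. With all in-screen libraries 5 passed for pairs in Bio. CDCA8 for imatinib in Bio turned to -0.10 in the unblocked fit on the same genes. CENPF for trametinib in Bio turned to -0.15 without the block, -0.23 without it on the same genes, and without 1 run it ranged from -1.06 to 5.53. Without 1 run, the number called ranged from 0 to 1 for imatinib, 0 to 0 for trametinib and 0 to 2 for YM115 in dT, 0 to 2 for position in both screens, 0 to 0 for pairs in both, and 2 to 5 for drug by screen. Without thinning, 11.8 mitotic genes were found per dT library instead of 8.69. The causes of these changes were not tested, except that fewer genes or libraries entered where stated. Libraries of low depth limit what a count of 0 shows.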
